A study of Mus musculus with 8 samples.

Results

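Protein folding genes of the endoplasmic reticulum (ER), the cytosol and the mitochondria were examined in bone marrow-derived macrophages (BMDMs), macrophages grown from marrow in medium conditioned by L929 fibroblasts. The set holds 38 genes of the 23761 in the deposited expression table, chosen by name as ER chaperones and members of the unfolded protein and heat-shock responses. Of these, 23 act in or from the ER, 12 in the cytosol and 3 in mitochondria. The macrophages came from 4 LysM mice, which are LysM Cre/Cre with the recombinase Cre expressed from the myeloid lysozyme M locus, and from 4 K2KO mice, which are LysM Cre/Cre and KLF2 flox/flox. The labels mark all 8 libraries as vehicle, with no treatment named. All mice were 3 months of age, and the controls carry the Cre alleles too but no floxed KLF2. Total RNA was sequenced in 1 library per mouse, and expression is given as FPKM (fragments counted per kilobase of transcript and scaled to the mapped total of the library). The libraries are called LysM0 to LysM3 and K2KO0 to K2KO3 after the table's columns, which give the genotype but not the mouse. In bulk RNA, fewer cells of a type and less RNA per cell cannot be told apart.

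The ER folds and glycosylates secreted and membrane proteins with the help of the HSP70 protein BiP, the HSP90 protein GRP94, lectins such as calnexin, and protein disulfide isomerases, and it sends proteins that fail to fold back to the cytosol for degradation. When unfolded proteins build up, the ER sensors IRE1, PERK and ATF6 start the unfolded protein response (UPR), in which IRE1 splices the messenger RNA of the transcription factor XBP1 and XBP1 and ATF6 raise the transcription of ER chaperone genes. The cytosol has its own HSP70 and HSP90 chaperones and a separate heat-shock response led by the transcription factor HSF1. Secretory cells such as activated macrophages are known to depend on the ER machinery.

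The ER stress response element (ERSE), through which ATF6 and XBP1 are known to act, is CCAAT and CCACG with 9 bases of any kind between them and was searched for on both strands in windows from 250 bases before to 50 bases after each RefSeq gene start (build GRCm38.p6). A window was at hand for 30 of the 38 genes, all but Hyou1, Derl1, Atf6, Hspa8, Hsp90aa1, Hsp90ab1, Hsf1 and Hspa9. The exact ERSE was found in 7 of the 20 ER genes with a window and in none of the 8 cytosolic or the 2 mitochondrial ones, against 0.137% of the 27025 genes in the RefSeq table. The sites are shown because they are the sequence feature that these ER genes have in common, and the fixed letters of the element are in capitals. Coordinates are those of the printed stretch, which is read on the strand given.
Hspa5, chr2:34772020-34772048, plus strand: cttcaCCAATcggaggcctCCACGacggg
Hsp90b1, chr10:86705633-86705661, minus strand: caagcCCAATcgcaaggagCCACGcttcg
Hsp90b1, chr10:86705528-86705556, plus strand: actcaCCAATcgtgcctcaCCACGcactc
Dnajc3, chr14:118937822-118937850, plus strand: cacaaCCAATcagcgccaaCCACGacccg
Canx, chr11:50325795-50325823, minus strand: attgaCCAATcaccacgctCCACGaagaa
Pdia6, chr12:17266486-17266514, plus strand: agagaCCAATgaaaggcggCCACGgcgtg
Creld2, chr15:88819515-88819543, minus strand: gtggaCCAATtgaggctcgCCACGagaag
Syvn1, chr19:6046527-6046555, plus strand: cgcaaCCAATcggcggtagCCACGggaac

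All of these sites lie upstream of the start, from 44 bases before it in Syvn1 to 212 bases before it in Hsp90b1, which has a second site on the opposite strand. A related element, ERSE-II (ATTGG, 1 base of any kind, CCACG), was found in Dnajb11 and Herpud1, against 0.0444% of all genes in the table. The shorter UPR element TGACGTGG, present in 0.714% of all genes, was in none of the windows of the 30 genes. The heat-shock element, searched for as 3 alternating blocks of GAA and TTC with 2 bases of any kind between neighbours, was found in Hsph1 and in windows shared by Hspd1 and Hspe1, which overlap at their starts and are transcribed away from each other, against 0.662% of all genes. These 3 genes and the ERSE-II genes are shown with the fixed letters in capitals. An exact match is a description of the sequence, and a window without a match may hold other forms of the element.
Dnajb11, chr16:22857847-22857867, plus strand: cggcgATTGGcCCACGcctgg
Herpud1, chr8:94386372-94386392, plus strand: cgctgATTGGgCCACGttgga
Hsph1, chr5:149636283-149636305, plus strand: gaggaGAActTTCcaGAAtctgc
Hspd1 and Hspe1, chr1:55088059-55088081, plus strand: ttctaGAAccTTCcgGAAggccc

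Klf2, the targeted gene, lies on chromosome 8 from 72319033 to 72321656. It was at 44.1, 52.9, 64.7 and 72.8 FPKM in LysM0 to LysM3 and at 45.5, 41.6, 59.2 and 59.3 FPKM in K2KO0 to K2KO3, and the groups overlap. Its log2 fold change was -0.18 ± 0.17 (SE, adjusted p = 0.460 by limma), and an exact two-sided permutation test over the libraries gave p = 0.429. The log2 fold change ran from -0.31 to -0.07 when single libraries were left out and was 0.04 once corrected for GC content and length. The coverage of single exons cannot be read from FPKM of the gene. Since Klf2 did not clearly separate the genotypes, directions are given for the libraries labelled K2KO.

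The chaperone genes were abundant in both genotypes, as the plot of FPKM by library shows. The 37 of the 38 genes that had a mean of at least 1 FPKM had a median expression of 33.0 FPKM, against 9.98 FPKM over the 10920 genes of the table that passed this filter. Hsp90ab1, the constitutive cytosolic HSP90, was at 323 FPKM and Hspa8, the constitutive cytosolic HSP70, at 229 FPKM on average over the 8 libraries. In the ER, Hspa5, which encodes BiP, led with 172 FPKM and was followed by Hsp90b1, which encodes GRP94, with 152 FPKM and by the disulfide isomerase Pdia3 with 142 FPKM. The ER sensors were far lower, with Atf6 at 11.4 FPKM, Ern1 (IRE1) at 7.09 FPKM and Eif2ak3 (PERK) at 4.99 FPKM. The stress-inducible HSP70 genes Hspa1a and Hspa1b were the lowest of the tested members at 1.74 and 1.48 FPKM.

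**Figure D1:**
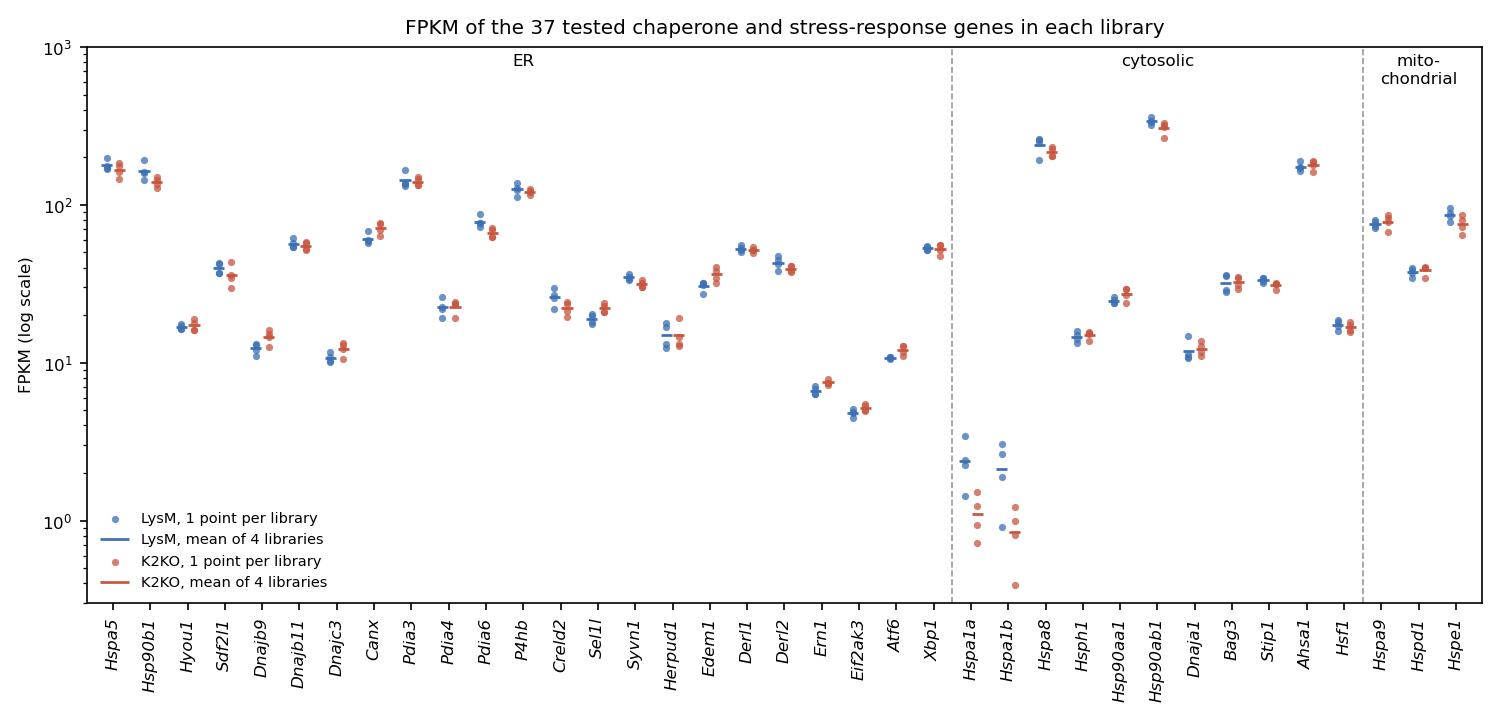
FPKM on a log axis of the 37 tested genes in each of the 8 libraries, with LysM in blue and K2KO in red, 1 point per library and a bar at the mean of 4. For most genes the groups lie close together or overlap, and Hspa1a and Hspa1b stand out as the genes with the lowest FPKM and the widest relative spread.

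The genotypes were compared with limma on log2(FPKM + 0.1) for all 10920 genes together, and Benjamini-Hochberg adjustment ran over the same genes. Differential expression required an adjusted p under 0.05 together with a log2 fold change of more than 0.26 in size. The answer for this set was largely negative. Of the 37 tested genes, 1 was differentially expressed (2.70%), against 2014 of all 10920 tested genes (18.4%). That gene was Hspa1a, which was lower in the libraries labelled K2KO, and no gene of the set was higher, where 9.84% of all tested genes were higher and 8.61% were lower. An unadjusted p under 0.05 was reached by 13 genes of the set (35.1%), 7 with a positive and 6 with a negative difference, against 37.8% of all tested genes (19.7% positive and 18.1% negative). The 6 include Hspa1b, which passed the filter only through the LysM libraries. Without Hspa1a and Hspa1b it was 11 of 35 genes (31.4%), 7 positive and 4 negative. An adjusted p under 0.05, whatever the fold change, was reached by 2 (5.41%), Hspa1a and Sel1l, against 20.9% of all tested genes. The median log2 fold change was -0.02 over the 37 genes and 0.01 over all tested genes. The median size of the change regardless of sign was 0.13 against 0.17.

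The precision limits what this shows. The 95% intervals of the log2 fold change lay within -0.5 and 0.5 for 35 of the 37 genes, all but Hspa1a and Hspa1b, so changes beyond that size would have been outside the interval. For 22 genes the interval still reached past the limit of 0.26 in at least 1 direction, so a change of that size is not excluded for them. A p that misses the threshold does not show that the genotypes were alike.

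**Figure D2:**
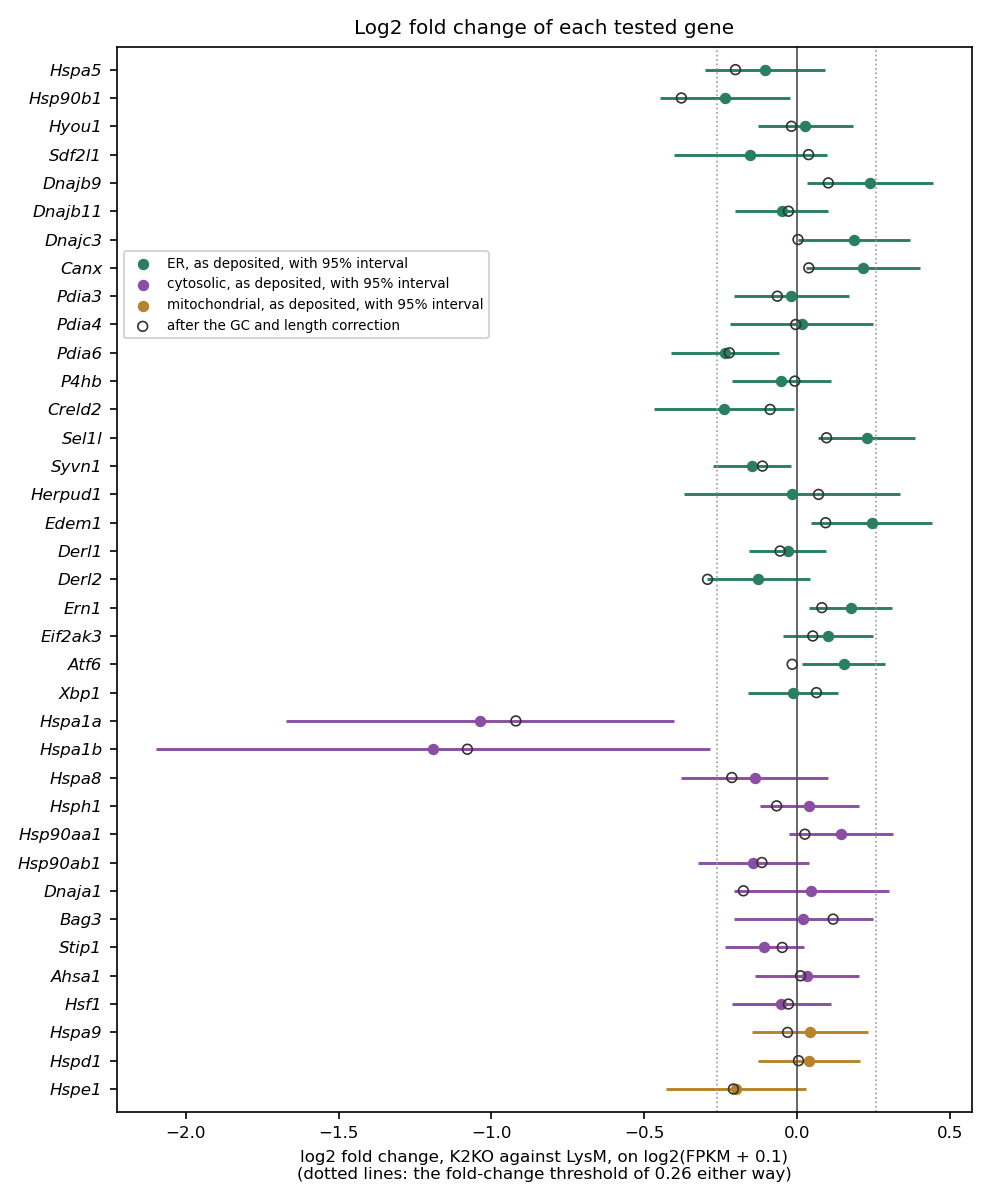
Log2 fold change of each tested gene, K2KO against LysM, on the log2(FPKM + 0.1) scale. Filled points with lines give the value from the FPKM as deposited with its 95% interval, open points the value corrected for GC content and length, and dotted lines the limit of 0.26 in either direction. Among the filled points all 23 ER genes lie between -0.24 and 0.24 and only Hspa1a and Hspa1b lie beyond the limit, while the open points of Hsp90b1 (-0.38) and Derl2 (-0.29) also lie beyond it.

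Among the 23 ER genes none was differentially expressed by limma. An unadjusted p under 0.05 was reached by 11 of them (47.8%), with 7 differences positive and 4 negative, against 37.8% of all tested genes. Their log2 fold changes ran from -0.24 to 0.24 with a median of -0.02, and 10 were positive and 13 negative. The groups did not overlap for 5 of them (21.7%), against 23.1% of all tested genes. These were Sel1l, Ern1 and Atf6, with every library labelled K2KO above every LysM library, and Pdia6 and Syvn1, with every library labelled K2KO below.

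Of the ER chaperones and their J-protein partners, the most abundant ones had means slightly lower in the libraries labelled K2KO. Hspa5, on chromosome 2 from 34771970 to 34777547, was at 169, 177, 198 and 171 FPKM in LysM0 to LysM3 and at 161, 184, 175 and 146 FPKM in K2KO0 to K2KO3, and the groups overlap. Its log2 fold change was -0.10 ± 0.09 (SE, adjusted p = 0.406 by limma). Over all settings it ran from -0.20 to 0.05, so the direction of Hspa5 is uncertain. Hsp90b1, on chromosome 10 from 86690209 to 86705509, was at 144, 159.8, 192 and 161 FPKM in the LysM libraries and at 127, 143, 151 and 136 FPKM in those labelled K2KO. Its groups overlap only through LysM0, and its log2 fold change was -0.23 ± 0.09 (SE, adjusted p = 0.103 by limma). When each library was corrected for GC content and transcript length by loess, Hsp90b1 passed the threshold as lower, with a log2 fold change of -0.38 (limma adjusted p = 0.0219), so its call depends on that step.

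Hyou1, the large HSP70-like ATPase that works with BiP, had a log2 fold change of 0.03 and Sdf2l1, a partner of ER J proteins, one of -0.15. Dnajb11, a J protein that helps BiP bind its substrates, was at -0.05. The other J proteins had higher means in the libraries labelled K2KO. Dnajb9, which is known to feed back on IRE1, was at 11.0, 13.2, 13.0 and 12 FPKM in the LysM libraries and at 14.5, 15.3, 16.2 and 12.5 FPKM in those labelled K2KO, where K2KO3 falls among the LysM libraries. Its log2 fold change was 0.24 ± 0.09 (SE, adjusted p = 0.0878 by limma). Dnajc3, the J protein also called p58IPK, was at 10.7 ± 0.701 FPKM (SD, n = 4) in LysM and 12.2 ± 1.18 FPKM (SD, n = 4) in K2KO, with a log2 fold change of 0.19 (limma adjusted p = 0.128). Once corrected for GC content and length, Dnajb9 was at 0.10 and Dnajc3 at 0.0036.

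The lectin and the thiol-disulfide enzymes also had differences of both signs. Canx, the membrane lectin calnexin that holds new glycoproteins in the ER, was at 60.1, 58.7, 68.4 and 57.0 FPKM in the LysM libraries and at 68.9, 76.3, 75.1 and 63.2 FPKM in those labelled K2KO. Its groups overlap through LysM2 and K2KO3, and its log2 fold change was 0.21 ± 0.08 (SE, adjusted p = 0.0911 by limma). Pdia6, a disulfide isomerase that is known to act on BiP clients and on IRE1, was at 72.8, 76.4, 88.1 and 76.3 FPKM in the LysM libraries and at 62.9, 62.3, 71.6 and 69.4 FPKM in those labelled K2KO. The groups do not overlap, but the log2 fold change of -0.23 ± 0.08 (SE, adjusted p = 0.0602 by limma) did not pass the threshold.

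Creld2, a UPR-induced ER protein with disulfide isomerase activity, was at 26.1 ± 3.18 FPKM (SD, n = 4) in LysM and 22.1 ± 2.12 FPKM (SD, n = 4) in K2KO, with a log2 fold change of -0.24 (limma adjusted p = 0.121). The other 3 enzymes of this class had smaller differences. Pdia3, which pairs with calnexin and calreticulin, had a log2 fold change of -0.02, Pdia4 one of 0.02 and P4hb, the archetypal disulfide isomerase, one of -0.05, with limma adjusted p between 0.628 and 0.929.

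In ER-associated degradation, Sel1l and Syvn1 encode the partners of a single ubiquitin ligase complex, and their differences had opposite signs. Sel1l, on chromosome 12 from 91806043 to 91849157, was at 20.3, 18.2, 19.7 and 17.6 FPKM in the LysM libraries and at 20.9, 24.0, 22.9 and 21 FPKM in those labelled K2KO. The groups do not overlap, and the log2 fold change of 0.23 ± 0.07 (SE) had an adjusted p of 0.0480 by limma, but it was under the limit of 0.26. Syvn1, the ligase also called HRD1, on chromosome 19 from 6046576 to 6053712, was at 35.1, 36.2, 34.1 and 33.5 FPKM in the LysM libraries and at 30.1, 32.0, 30.2 and 33.2 FPKM in those labelled K2KO. These groups do not overlap either, with K2KO3 just under LysM3, and the log2 fold change was -0.15 ± 0.06 (SE, adjusted p = 0.0896 by limma). Syvn1 shares exonic positions with Mrpl49 on the other strand.

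Edem1, which marks misfolded glycoproteins for removal, was at 31.9, 31.9, 30.9 and 27.1 FPKM in the LysM libraries and at 34.5, 40.4, 38.1 and 31.9 FPKM in those labelled K2KO. K2KO3 lay among the LysM libraries, and the log2 fold change was 0.24 ± 0.09 (SE, adjusted p = 0.0751 by limma). Derl1 and Derl2, which form part of the channel through which proteins leave the ER, had log2 fold changes of -0.03 and -0.13. Derl2 passed the threshold as lower after the correction for GC content and length, with a log2 fold change of -0.29 (limma adjusted p = 0.0496). Herpud1, a UPR target in the same complex, varied widely within both groups, from 12.3 to 17.8 FPKM in LysM and from 12.7 to 19.2 FPKM in K2KO, and its log2 fold change was -0.02.

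The sensors of the UPR all had positive differences, and the groups did not overlap for 2 of the 3, Ern1 and Atf6, where 23.1% of all tested genes had such groups. None passed the threshold, and once corrected for GC content and length Ern1 was at 0.08 and Atf6 at -0.02. Ern1 was at 6.33, 7.11, 6.34 and 6.83 FPKM in the LysM libraries and at 7.87, 7.49, 7.47 and 7.27 FPKM in those labelled K2KO, with a log2 fold change of 0.18 ± 0.06 (SE, adjusted p = 0.0658 by limma). Atf6 was at 10.7, 10.9, 10.6 and 10.9 FPKM in the LysM libraries and at 11.7, 12.7, 12.7 and 11.0 FPKM in those labelled K2KO, with K2KO3 just above the LysM range and a log2 fold change of 0.15 ± 0.06 (SE, adjusted p = 0.10 by limma). Eif2ak3, where the groups overlap, had a log2 fold change of 0.10 (limma adjusted p = 0.280). Xbp1, the factor whose messenger RNA IRE1 splices, was at 53.1 ± 1.62 FPKM (SD, n = 4) in LysM and 52.7 ± 3.85 FPKM (SD, n = 4) in K2KO, with a log2 fold change of -0.01 (95% interval -0.16 to 0.13). FPKM of a whole gene cannot tell the spliced from the unspliced form.

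The 9 genes with an exact ERSE or ERSE-II had differences of both signs. Their log2 fold changes ran from -0.24 in Creld2 to 0.21 in Canx, and 2 were positive and 7 negative. For the 11 ER genes whose windows held neither element they ran from -0.15 to 0.24, with 6 positive and 5 negative. No test was made of this difference between genes with and without an element. Hspa5, Dnajb11 and Herpud1 changed sign in some setting, as did Sdf2l1, Pdia3, Pdia4, P4hb and Xbp1 among those without. After the GC and length correction Dnajc3 was at 0.0036, Canx at 0.04 and Herpud1 at 0.07. The other genes with an element stayed negative in that fit.

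In the cytosol, the stress-inducible HSP70 gene Hspa1a was lower in the libraries labelled K2KO and was the only gene past the threshold. Hspa1a, on chromosome 17 from 34969190 to 34972156, was at 1.43, 2.26, 2.41 and 3.45 FPKM in the LysM libraries and at 1.51, 0.941, 1.23 and 0.717 FPKM in those labelled K2KO. The groups overlap through LysM0 and K2KO0. The log2 fold change was -1.04 ± 0.28 (SE, adjusted p = 0.0334 by limma), with higher FPKM in 3 of the 4 LysM libraries than in any library labelled K2KO. An exact two-sided permutation test gave p = 0.0571, where the smallest p that 35 splits of 4 against 4 allow is 0.0286. The limma call was lost without the filter on low FPKM (adjusted p = 0.0747), with ordinary least squares in its place (adjusted p = 0.0855), with the GC and length correction (adjusted p = 0.0703) and on leaving out any library but LysM0 (adjusted p from 0.0511 to 0.0997). The log2 fold change was -1.04 without the filter and with ordinary least squares and -0.92 with the correction. It lay between -1.19 and -0.85 in those 7 leave-one-out fits. With a pseudocount of 1 in place of 0.1 it was -0.67, and Hspa1a was still called (limma adjusted p = 0.0368).

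Hspa1b lies next to it, from 34956436 to 34959238, and the transcripts are 99.2% identical over 2201 bases, so the split of reads between them is uncertain. Hspa1b was at 0.912, 1.89, 2.64 and 3.04 FPKM in the LysM libraries and at 1.21, 0.390, 0.987 and 0.810 FPKM in those labelled K2KO, and it passed the filter only through the LysM libraries. Its log2 fold change of -1.19 ± 0.40 (SE, adjusted p = 0.0632 by limma) did not pass the threshold. The sum of both genes was 2.35, 4.15, 5.05 and 6.48 FPKM in the LysM libraries and 2.72, 1.33, 2.22 and 1.53 FPKM in those labelled K2KO, and the groups overlap through LysM0 again. On the log2 scale this sum was lower by a difference of -1.13, with limma adjusted p = 0.0347 when the sum took the place of Hspa1a in the fit and an exact permutation p of 0.0571. The sum holds Hspa1a itself and a gene that passed the filter only through the LysM libraries. It is therefore no separate support for the call of Hspa1a. At these low FPKM the pseudocount of 0.1 makes the fold change smaller than the ratio, which was 0.460 for Hspa1a and 0.401 for Hspa1b.

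**Figure D3:**
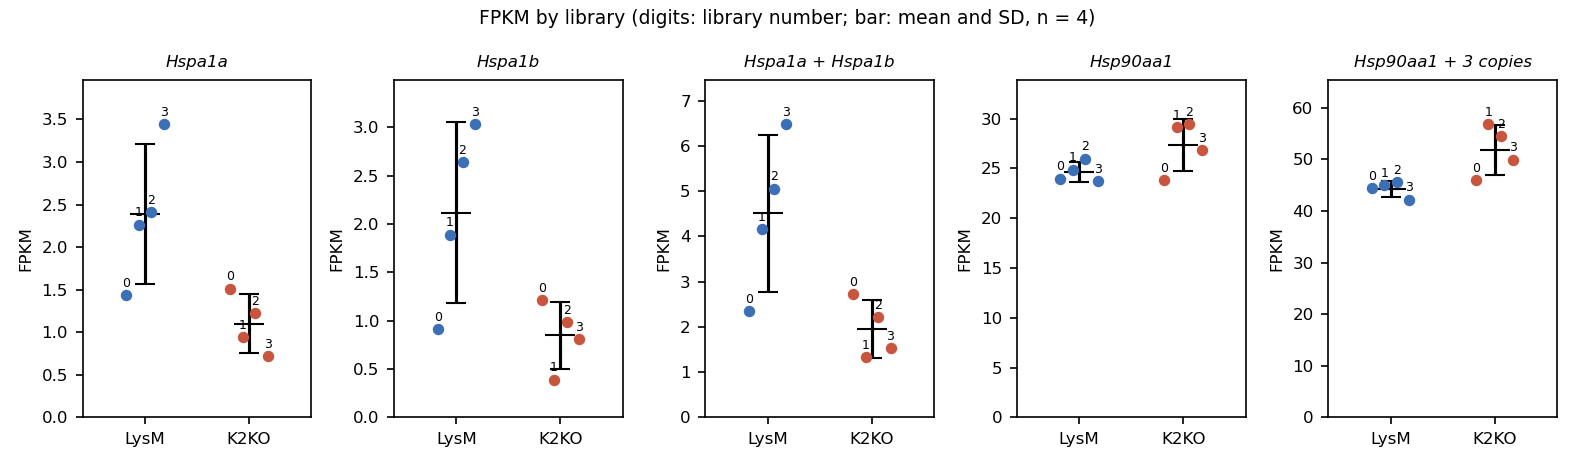
FPKM of Hspa1a, Hspa1b and their sum, and of Hsp90aa1 alone and with its 3 near-identical copies, in each library. The points are marked with the library number, and bars give the mean and SD (n = 4). LysM0 lies within the range of the libraries labelled K2KO for the HSP70 genes and their sum, and the sum over Hsp90aa1 and its copies is the one panel without overlap.

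The other tested cytosolic chaperones differed less than Hspa1a and Hspa1b and none passed the threshold. Hspa8, which folds new proteins under normal conditions, was at 192, 262, 249 and 258 FPKM in the LysM libraries and at 232, 227, 203 and 205 FPKM in those labelled K2KO, with LysM0 the lowest of all 8 and a log2 fold change of -0.14 (limma adjusted p = 0.364). It has 6 listed near-identical copies, of which Gm8355 was listed at 98.5 and Gm15459 at 82.0 FPKM on average, and the exons of Hspa8 overlap small RNA genes. With the copies added, the log2 difference of Hspa8 was -0.05. Hsph1, a large HSP70-type exchange factor, had a log2 fold change of 0.04 (95% interval -0.12 to 0.20).

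The cytosolic HSP90 genes had differences of opposite sign. Hsp90ab1 was at 320.0, 337, 359.8 and 338 FPKM in the LysM libraries and at 267, 309, 321 and 332 FPKM in those labelled K2KO, with a log2 fold change of -0.14 (limma adjusted p = 0.219). Hsp90aa1, the inducible form, was at 24.0, 24.9, 26 and 23.7 FPKM in the LysM libraries and at 23.8, 29.1, 29.5 and 26.9 FPKM in those labelled K2KO, with a log2 fold change of 0.14 (limma adjusted p = 0.192). Once corrected for GC content and length, Hsp90aa1 was at 0.03 and Hsp90ab1 at -0.11. Hsp90aa1 has 3 listed near-identical copies, Gm5844, Gm12346 and Gm5511. Summed with them it was at 44.4, 45, 45.6 and 42.2 FPKM in the LysM libraries and at 46.0, 56.8, 54.4 and 49.9 FPKM in those labelled K2KO, which do not overlap. The log2 difference of the sums was 0.22 (exact two-sided permutation p = 0.0286, the smallest possible). It is 1 of 7 such sums that were looked at, so this p is not adjusted for the other 6. In the limma fit with copies summed, Hsp90aa1 did not pass the threshold (adjusted p = 0.0605).

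Hspb1, the small heat-shock protein HSP25, was listed at 0, 0.116, 0 and 0.234 FPKM in the LysM libraries and at 0.460, 0.137, 0.187 and 0.449 FPKM in those labelled K2KO and was below the filter on low FPKM. No fold change is given for it, since LysM0 and LysM2 are listed at 0. Its listed copy Hsp25-ps1 is 99.4% identical over 630 bases and was at 0.187 FPKM on average, so the split of reads between them is uncertain. The co-chaperones and Hsf1 gave no call. Dnaja1, a J protein for HSP70, had a log2 fold change of 0.05, the HSP70 exchange factor Bag3 one of 0.02, and Stip1, which joins HSP70 to HSP90, one of -0.11. Ahsa1, which stimulates the ATPase of HSP90, was at 0.03 and Hsf1 at -0.05, and over these 5 genes limma adjusted p lay between 0.198 and 0.896. The value of Ahsa1 is uncertain because its exons hold the gene Gm47293, listed at 525 FPKM on the same strand. Dnaja1 shares exonic positions with Smu1 and has 3 listed near-identical copies, of which Gm15542 was listed at 13.3 and Gm7816 at 10.6 FPKM on average. Its log2 difference was 0.19 with the copies added (exact two-sided permutation p = 0.171) and -0.18 for Dnaja1 alone once corrected for GC content and length, so its direction is uncertain.

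The mitochondrial chaperones gave no call. Hspa9, the mitochondrial HSP70, had a log2 fold change of 0.04 (95% interval -0.15 to 0.23) and Hspd1, the barrel-forming HSP60, one of 0.04 (95% interval -0.13 to 0.21). Hspe1, the lid of that barrel, was at 77.5, 88.7, 95.6 and 85.4 FPKM in the LysM libraries and at 64.2, 72.6, 80.1 and 86.3 FPKM in those labelled K2KO, with a log2 fold change of -0.20 (limma adjusted p = 0.177). K2KO0 was the lowest of all 8 libraries for all 3 genes. Hspd1 and Hspe1 share exonic positions on opposite strands. Hspd1 also has the listed copy Hspd1-ps3, 99.0% identical over 1722 bases and at 14.3 FPKM on average, and with it added the log2 difference of Hspd1 was 0.13.

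Much of the spread lay between libraries of the same genotype. Of the 23 ER genes, LysM2 was the highest LysM library in 12 and LysM0 the lowest in 13. Among the libraries labelled K2KO, K2KO3 was the lowest in 11 ER genes and K2KO0 in 9. The summed FPKM of the ER genes was 1206 ± 79.6 (SD, n = 4) in LysM and 1157 ± 56.8 (SD, n = 4) in K2KO, from 1132 in LysM0 to 1319 in LysM2 and from 1106 in K2KO3 to 1212 in K2KO2. The cytosolic sums were 892 ± 37.5 and 840.0 ± 35.0 and the mitochondrial ones 199.96 ± 12.4 and 193 ± 20.02 FPKM (SD, n = 4 each). The FPKM of all listed genes also summed to less in most libraries labelled K2KO. These totals ran from 497253 in LysM0 to 551608 in LysM3 and from 448235 in K2KO0 to 501965 in K2KO3. The compartment sums were not scaled to them, so no direction is drawn from the sums.

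**Figure D4:**
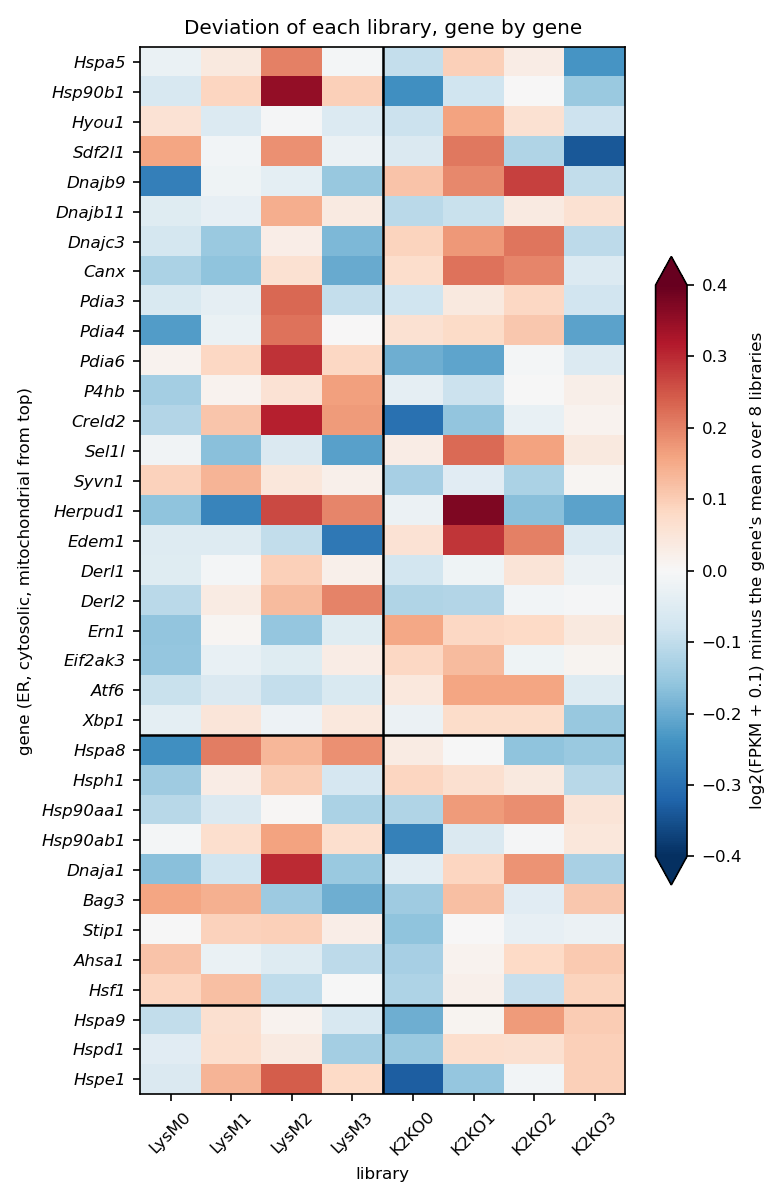
Deviation of each library from the mean of the gene over the 8 libraries, on the log2(FPKM + 0.1) scale, for 35 genes ordered by compartment, with Hspa1a and Hspa1b left out because they exceed the colour range. Columns are libraries and rows genes, and red is above and blue below the mean. LysM2 is red for most chaperones and disulfide isomerases of the ER, while K2KO0 and K2KO3 are blue for many of them.

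A trend with base composition ran through the table. Over 10899 tested genes with a transcript sequence, the log2 fold change fell with GC content, with a Spearman rho of -0.40 across genes, and over the 37 members rho was -0.45. These are correlations across genes of the same 8 libraries, which are not independent replicates. The 10 ER genes with a positive difference had a median GC content of 46.9% and the 13 with a negative one 50.5%. After the correction for GC content and length, the differences of Canx, Sel1l, Edem1 and Ern1 shrank to 0.04, 0.10, 0.09 and 0.08 and that of Atf6 to -0.02, and that of Creld2 to -0.09. Sdf2l1 turned from -0.15 to 0.04, Syvn1 was at -0.11 and Pdia6 at -0.22, and Hsp90b1 and Derl2 moved further down as given above. How much of each difference goes with base composition was not tested beyond this step.

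Other genes of the same pathways were taken from 8 lists of 140 genes, of which 134 passed the filter. Of these, 12 were higher and 12 lower (17.9%), close to the 18.4% of all tested genes. The 12 higher genes had a median GC content of 41.4% and the 12 lower ones 51.3%. After the GC and length correction 2 of the 12 higher and 7 of the 12 lower genes passed the threshold, and 3 other genes of the lists were newly lower (Selk, Dnajc2 and Chordc1, named after their values were seen). Over all tested genes 485 were higher and 613 lower after the correction (10.1% called), against 1074 and 940 before it. Of the 24, Hspa13 passed in all 8 fits that left out a library, Edem3 and Ube2j1 in 7, Sdf2 in 5 and each of the others in 1 to 4. Up to 4 genes per list, those with the smallest adjusted p, are named here.

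In the list of other ER folding genes, 2 of 19 tested genes were higher and 4 lower (31.6%, against 18.4% of all tested genes). Hspa13, an HSP70-like protein of microsomes, was at 3.19, 3.26, 3.39 and 3.14 FPKM in the LysM libraries and at 4.99, 5.21, 4.78 and 4.02 FPKM in those labelled K2KO, which do not overlap. Its log2 fold change was 0.53 ± 0.09 (SE, adjusted p = 0.0109 by limma), and it still passed at 0.32 once corrected for GC content and length (limma adjusted p = 0.0239). Tmx1, a membrane-bound thioredoxin, was higher as well, with a log2 fold change of 0.28 (limma adjusted p = 0.0226), but not with the GC and length correction (0.14). Manf, a UPR-induced ER protein that is also secreted, was at 52.3, 68.1, 77.1 and 65.9 FPKM in the LysM libraries and at 40.2, 46.3, 48.4 and 50.2 FPKM in those labelled K2KO. The groups do not overlap, and the log2 fold change was -0.50 ± 0.12 (SE, adjusted p = 0.0237 by limma). Sdf2, a paralog of Sdf2l1, was lower too, with a log2 fold change of -0.36 (limma adjusted p = 0.0180). Calr, which encodes the soluble lectin calreticulin, had a log2 fold change of 0.0035 at 208 FPKM on average (limma adjusted p = 0.981) and is named here beside Canx although it is outside the rule.

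Of the other ER-associated degradation genes, 3 of 19 tested were higher and 1 lower (21.1%). Edem3, a mannosidase-like relative of Edem1, was at 3.76, 3.15, 3.23 and 3.29 FPKM in the LysM libraries and at 5.22, 5.45, 5.21 and 4.11 FPKM in those labelled K2KO, with no overlap and a log2 fold change of 0.55 ± 0.10 (SE, adjusted p = 0.0126 by limma). It too still passed after this correction, at 0.35 (limma adjusted p = 0.0303). The ER-anchored ubiquitin-conjugating enzymes differed in opposite directions, with Ube2j1 higher with 0.35 (limma adjusted p = 0.0129) and Ube2j2 lower with a log2 fold change of -0.36 (limma adjusted p = 0.0374). Faf2, which recruits the extracting ATPase to the ER, was higher with a log2 fold change of 0.31 (limma adjusted p = 0.0325). With the GC and length correction Ube2j1 and Faf2 both came to 0.24 and did not pass.

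Of the genes of ER entry and N-glycosylation, 2 of 24 were higher and 3 lower (20.8%, near the 18.4% of all tested genes). Sec62, a helper of the translocation channel, was higher with a log2 fold change of 0.29 (limma adjusted p = 0.0245), while the channel subunit Sec61b was lower with -0.30 (limma adjusted p = 0.0336). Of the oligosaccharyltransferase, the catalytic subunit Stt3a was higher with 0.31 (limma adjusted p = 0.0246) and Dad1, a small subunit, lower with -0.36 (limma adjusted p = 0.0286). The GC and length correction ended the calls of Sec62, Sec61b and Stt3a, with log2 fold changes of 0.13, -0.08 and 0.07, and Dad1 was at -0.43. Among 17 tested genes of UPR signalling the only one past the threshold (5.88%) was Mbtps2, the protease that completes the cleavage of ATF6. It was at 3.83, 3.36, 3.61 and 3.04 FPKM in the LysM libraries and at 4.38, 5.26, 4.53 and 4.61 FPKM in those labelled K2KO, with a log2 fold change of 0.43 (limma adjusted p = 0.0178), and did not pass with the GC and length correction (0.21). Atf4 and Ddit3, the transcription factors downstream of PERK, which are named outside the rule, had log2 fold changes of -0.17 and -0.05 (limma adjusted p = 0.452 and 0.795).

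In the cytosol, where the shares again stand against 18.4% of all tested genes, 2 of 14 tested HSP70, HSP40 and small heat-shock protein genes were higher (14.3%), the J proteins Dnaja2 with a log2 fold change of 0.30 (limma adjusted p = 0.0298) and Dnajb4 with 0.42 (limma adjusted p = 0.0221). Of 15 co-chaperones and heat-shock factors 2 passed (13.3%), of which the HSP70-interacting St13 was higher with 0.34 (limma adjusted p = 0.0384) and the ubiquitin ligase Stub1 lower with -0.38 (limma adjusted p = 0.0329). Of 14 genes of the chaperonin TRiC and its helper prefoldin 3 passed (21.4%), where no TRiC subunit did and the prefoldin subunits Pfdn2, Pfdn5 and Pfdn6 were lower, with log2 fold changes of -0.34, -0.51 and -0.40 (limma adjusted p between 0.0324 and 0.0494). Of 12 mitochondrial chaperones and proteases 1 passed (8.33%), as the inner-membrane protease Yme1l1 was higher with 0.46 (limma adjusted p = 0.0184). The GC and length correction left Pfdn2 past the threshold and brought Dnaja2, Dnajb4, St13 and Yme1l1 to 0.18, 0.22, 0.14 and 0.21 and Stub1, Pfdn5 and Pfdn6 to -0.17, -0.35 and -0.20, none of which passed.

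**Figure D5:**
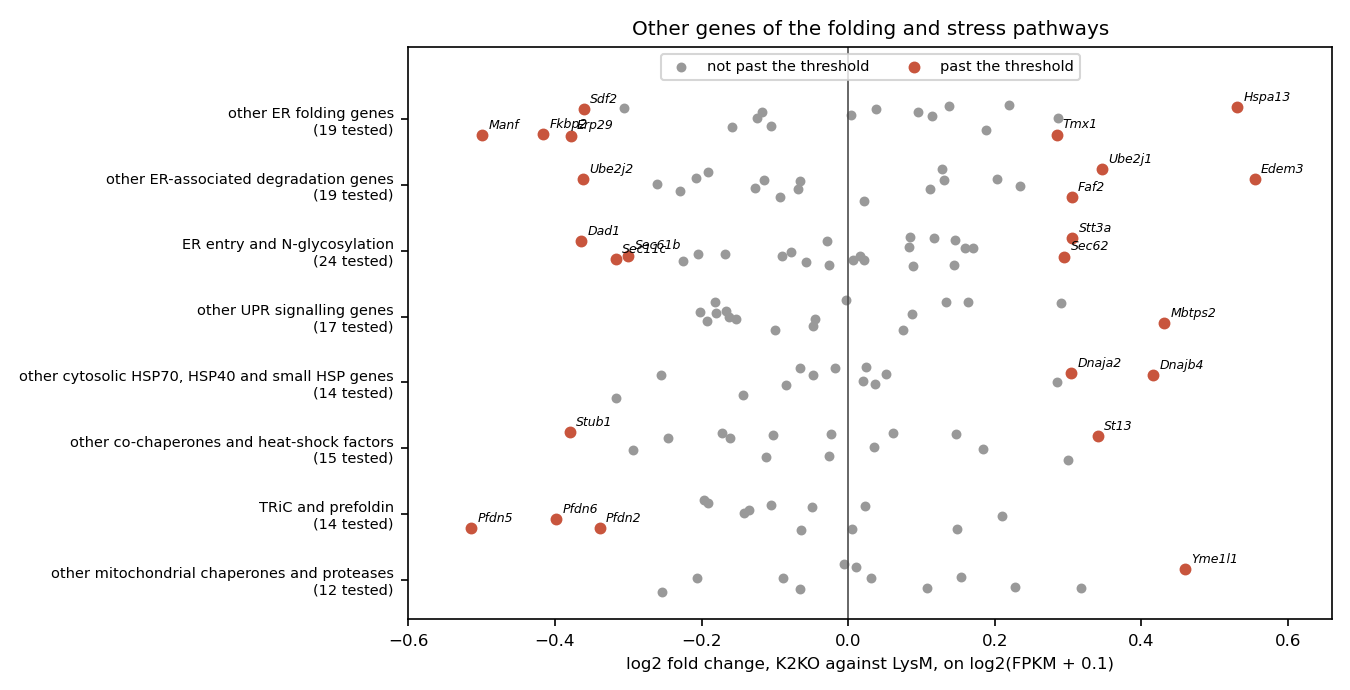
Log2 fold change, K2KO against LysM, on the log2(FPKM + 0.1) scale, of the 134 tested genes in 8 lists of related pathways, 1 point per gene and with vertical scatter only for legibility. Red points, which are labelled, passed the threshold (12 higher and 12 lower) and grey points did not.

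The cultures carried the markers of macrophages at high levels, with Cd68 at 1807 FPKM on average. Of 8 macrophage markers Mertk was higher and Lyz2 lower in the libraries labelled K2KO, where 18.4% of all tested genes passed the threshold. Lyz2 is the gene that carries Cre in all 8 cultures. The summed level of the 8 macrophage markers was 4042 ± 88.1 FPKM in LysM and 3764 ± 68.0 FPKM in K2KO (SD, n = 4 each). Cd14 alone was at 1028 FPKM in LysM and 829 FPKM in K2KO on average, without overlap (adjusted p = 0.0630 by limma). Log2 fold changes were 0.02 for Adgre1, 0.0019 for Csf1r, -0.04 for Cd68, -0.22 for Itgam and -0.28 for Fcgr1, none past the threshold. The 8 neutrophil and precursor markers summed to 250 ± 54.7 FPKM in LysM and 250 ± 60.8 FPKM in K2KO (SD, n = 4 each), led by S100a9 at 129 FPKM. Of the 7 tested, only Camp passed the threshold, as lower in the libraries labelled K2KO. The others had log2 fold changes of 0.47 (Elane), 0.27 (S100a8), 0.17 (Mpo), 0.02 (Ngp), -0.0035 (Ltf) and -0.07 (S100a9). Lyz2 and Camp still passed once corrected for GC content and length (limma adjusted p = 0.0486 and 0.0299), while Mertk did not (0.28, limma adjusted p = 0.0752). B and plasma cell markers were dominated by Sdc1 at 61.3 FPKM, which is not restricted to these cells, and all T and NK cell, dendritic cell and mast cell markers stayed under 1 FPKM. Of the osteoclast markers, Ctsk was at 42.5 ± 8.07 FPKM in LysM and 31.5 ± 5.29 FPKM in K2KO (SD, n = 4 each, adjusted p = 0.0850 by limma), Acp5 at 31.1 and 32.6 FPKM, and Calcr was listed at 0. Erythroid markers were led by Hba-a1, at most 1.25 FPKM in any library. The 7 fibroblast markers, which bear on carry-over from the marrow stroma, summed to 0.637 ± 0.525 FPKM in LysM and 1.76 ± 1.26 FPKM in K2KO (SD, n = 4 each). The part of these cell types in the differences above was not tested.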

How the data were processed

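Per the labels and the study's methods, total RNA of BMDMs was sequenced for 4 LysM and 4 K2KO mice aged 3 months. The authors deposited FPKM computed with Cufflinks against mm10. The methods name TopHat2 as the aligner, while the submitters' processing notes list STAR, Cufflinks and Cuffdiff without versions. The labels and the methods also name different RNA isolation kits, and the labels mark the libraries as vehicle-treated. Each column was assigned to its genotype, but no column to a given mouse. Read counts cannot be had from FPKM, so absolute depth is unknown, and no counting interval could be given. Steps among the lowest FPKM put the relative depth at 0.887 to 1.33 of that of LysM0, and it did not separate the genotypes (exact permutation test, p = 0.800).

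The 38 genes, all other lists, the named-gene rule and the tests were chosen with earlier results of these data known. Of 23761 listed genes, 23645 were matched to GENCODE M21 for names, positions, GC content and length. The 10920 genes with a mean of at least 1 FPKM were fitted on log2(FPKM + 0.1) with limma 3.58.1 (lmFit, eBayes with a trend) in R 4.3.3, without covariates, and the procedure was tested on simulated data. Genes named beyond the 38 were Klf2, up to 4 genes past the threshold per related list, cell type markers and listed copies. Calr, Atf4 and Ddit3 were added after their values were seen. Near-identical copies were found with blastn 2.17.0 (at least 95% identity over at least 200 bases). Promoter windows are from RefSeq. The alternatives, listed with their effect in the closing section, were 20 planned and 1 added after seeing the data, in which copies were summed. P-values measure the spread between these 8 cultures.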

Additional observations from a re-analysis of the deposited data

Results flagged for a closer look

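Within groups of 4 libraries, a single library stood far from the other 3 (Dixon's 95% critical value) in 4 of 126 groups looked at, where chance flags about 1 in 20, or 6.3. Pdia3 was at 165 FPKM in LysM2, above 132 to 138 FPKM in the other LysM libraries. Dnaja1 was at 14.8 FPKM in the same library, against 10.7 to 11.4 FPKM. Pdia4 was at 19.3 FPKM in K2KO3, below 23.4 to 24.2 FPKM in the other libraries labelled K2KO. Hspd1 was at 34.2 FPKM in K2KO0, against 39.7 to 40.5 FPKM in the others.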

How the results depend on the processing

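The count of differentially expressed genes over the whole table, 2014, depended on the settings. It was 1090 without a filter on low FPKM, 746 with ordinary least squares, 110 at an absolute log2 fold change over 1 and 1098 after the GC and length correction, and it ran from 337 to 2837 on leaving out a library. ER genes higher in the libraries labelled K2KO numbered 1 with quantile normalization (Canx), 1 with upper-quartile scaling (Sel1l) and 0 to 3 on leaving out a library (Canx, Dnajb9 and Edem1 without K2KO3). ER genes lower numbered 2 after the GC and length correction (Hsp90b1 and Derl2) and 0 to 2 on leaving out a library (Creld2 and Pdia6 without LysM0). Cytosolic genes lower, 1 in the report, numbered 0 without a filter, with ordinary least squares and after the GC and length correction. They numbered 2 with quantile normalization (Hspa1a and Hspa1b) and 0 to 2 on leaving out a library (both genes without LysM0). Hspa1b passed the filter only through the LysM libraries, so nothing is drawn from its calls. The counts and shares with quantile normalization and without LysM0 include it. The median log2 fold change of the cytosolic genes turned from -0.0514 to 0.0502 with quantile normalization. That of the ER genes turned from -0.0165 to 0.0459 with quantile normalization and 0.0274 with upper-quartile scaling. It was 0.0301 without LysM2 and 0.0345 without K2KO3. That of the mitochondrial genes turned from 0.0393 to -0.0307 after the GC and length correction and -0.0067 without K2KO2. Of the 37 genes, 27 were called in none of the 21 alternatives, 10 in at least 1, and 17 changed sign in at least 1. The share of the 37 called was 8.11% with quantile normalization, against 14.05% of all tested genes in that fit. It was 5.41% against 19.08% with upper-quartile scaling and 5.41% against 10.05% after the GC and length correction. It was 13.51% against 21.36% without LysM0 and 8.11% against 25.98% without K2KO3. At an absolute log2 fold change over 1 it was 2.70% against 1.01%, through Hspa1a alone. The other pathway genes, 12 higher and 12 lower, numbered 5 and 1 with ordinary least squares, 0 and 0 at an absolute log2 fold change over 1, 2 higher after the GC and length correction, 1 lower without a filter, 3 lower with quantile normalization, and 1 to 18 higher and 0 to 16 lower on leaving out a library. The cause of these changes was not tested. Upper-quartile scaling shifted the median of all genes to 0.05 and the share of higher calls from 53.3% to 64.1%.

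The number that ends a column name does not mark a shared animal, and libraries with the same number did not deviate together (correlations from -0.07 to 0.07), so it was not taken as a pairing. With the replicate number as a block, 2057 genes were called over the table and 0 cytosolic genes were lower, Hspa1a having an adjusted p of 0.0780. With the replicate block and the GC and length correction, 868 genes were called, 2 ER genes were lower, 0 cytosolic genes were lower and 1 other pathway gene was higher.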
